A study of Rattus norvegicus with 15 samples.

Results

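Peroxiredoxins and glutathione peroxidases remove hydrogen peroxide and lipid hydroperoxides from cells. The set described here holds 10 antioxidant genes chosen by symbol: Prdx1, Prdx2, Prdx3, Prdx4, Prdx5, Prdx6, Gpx1, Gpx3, Gpx4 and Txn1, the last encoding cytosolic thioredoxin. All 10 were found among the 17055 genes of the count tables. The list was drawn up with results of these libraries known, so its counts below describe the genes and are read against the share of all genes that met the same rule.

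A peroxiredoxin reduces a peroxide with a cysteine of its active site, and most members of the family are returned to their reduced form by thioredoxin, which thioredoxin reductase recharges with NADPH. Glutathione peroxidases do the same chemistry with glutathione, and Gpx1, Gpx3 and Gpx4 carry selenocysteine at the active site. Beta cells of the pancreatic islet are known for low catalase and low glutathione peroxidase activity, so peroxiredoxins and thioredoxin carry much of their peroxide removal.

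Islets of 10-day-old Sprague-Dawley rats, with no genetic change given in the labels, were dispersed into cells and transfected either with miR-17-5p or with a control miRNA mimic. Transcripts were sequenced in 2 ways: as poly(A)-selected mRNA, and as RNA bound to Ago2, the Argonaute protein of the RNA-induced silencing complex (RISC), after immunoprecipitation with an anti-Ago2 antibody. The groups were miR-17-5p RISC (n = 4), miR-17-5p mRNA (n = 5), control RISC (n = 3) and control mRNA (n = 3), 15 libraries in all. Libraries are labelled as biological replicates, yet a library's number is not the same in its title and its description. Each p-value therefore sets a difference between groups against the spread from library to library, part of which may be technical. Islets hold several cell types, so fewer cells of a type and less RNA per cell cannot be told apart.

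The transfected microRNA is shown because its seed, bases 2 to 8 and here in capitals, is the stretch by which it pairs with targets in Ago2. RefSeq lists this mature sequence of 23 bases in build GRCr8 at chr15:98587861-98587883 on the plus strand and again at chrX:137343615-137343637 on the minus strand.
miR-17-5p: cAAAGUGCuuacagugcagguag

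Libraries of miR-17-5p RISC held 7819020 to 12733872 counts and those of miR-17-5p mRNA 5870265 to 21056240, against 4185123 to 13420403 for control RISC and 3379456 to 10207925 for control mRNA. After thinning each library to 3379456 counts, 8888 to 10607 genes were detected in miR-17-5p RISC libraries and 5476 to 7039 in control RISC libraries, against 11045 to 12433 in mRNA libraries. Insulin transcripts Ins1 and Ins2 were above 0 in every library. Summed islet hormone and beta cell markers reached 268941 to 489787 counts per 1000000 counts (CPM) in miR-17-5p mRNA and 381163 to 452121 CPM in control mRNA. All 11 had a log2 fold change below 0, with a median of -0.48, and edgeR called 0 of them, with 6 at an unadjusted p under 0.05. Summed markers of stellate cells and fibroblasts reached 19259 to 42673 CPM in miR-17-5p mRNA and 10422 to 17980 CPM in control mRNA, and 10 of 15 tested markers were called higher. Summed red blood cell markers reached 3.20 to 12.3 CPM in miR-17-5p mRNA and 20.2 to 75.5 CPM in control mRNA, and 2 of 3 tested markers were called lower. Summed macrophage and leukocyte markers reached 206 to 524 CPM in miR-17-5p mRNA and 91.7 to 352 CPM in control mRNA. All 16 had a log2 fold change above 0, with a median of 0.91, and 2 of 16 were called higher. Summed endothelial markers reached 153 to 305 CPM in miR-17-5p mRNA and 172 to 246 CPM in control mRNA, and 2 of 11, Cdh5 and Kdr, were called lower. Of the 11, 7 lay below 0 and 4 above, among them Eng at 0.68 (edgeR adjusted p = 0.0984). Eng made up much of the sum, at a mean of 143 CPM in miR-17-5p mRNA and 88.5 CPM in control mRNA. Of all genes tested in mRNA, edgeR called 3.11% higher and 0.767% lower, and 8.00% were lower at an unadjusted p under 0.05. Acta2, Pecam1, Hba2 and Hbb were above 0 in every mRNA library, while Ptprc was at 0 in 1 control mRNA library. The part of these cell types in the results below was not tested.

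Comparison of miR-17-5p with control mRNA libraries asked which transcripts were more or less abundant after transfection. Prdx5 transcripts were about 2.03-fold higher in miR-17-5p cells, and Prdx5 was the 1 member of the set to pass the edgeR test. Prdx6 and Prdx1 were also higher in every miR-17-5p library than in any control library, Prdx2 was lower in every one, and the other 6 genes overlapped between groups. A call here means an adjusted p under 0.05 from edgeR's quasi-likelihood test with Benjamini-Hochberg adjustment over the 11077 genes tested. All 10 genes passed the filter on low counts. The share of all genes called was 3.87%, with 3.11% higher and 0.767% lower. The median log2 fold change was 0.39 over the 10 genes and 0.01 over all genes tested, and 8 of the 10 were above 0, as were 50.7% of all genes. Groups did not overlap for 15.2% of all genes, with 8.51% higher and 6.68% lower in miR-17-5p libraries, and for the set these shares were 3 and 1 of 10. An unadjusted p under 0.05 was found for 3 of the 10, all higher, and for 11.0% of all genes as higher and 8.00% as lower.

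**Figure D1:**
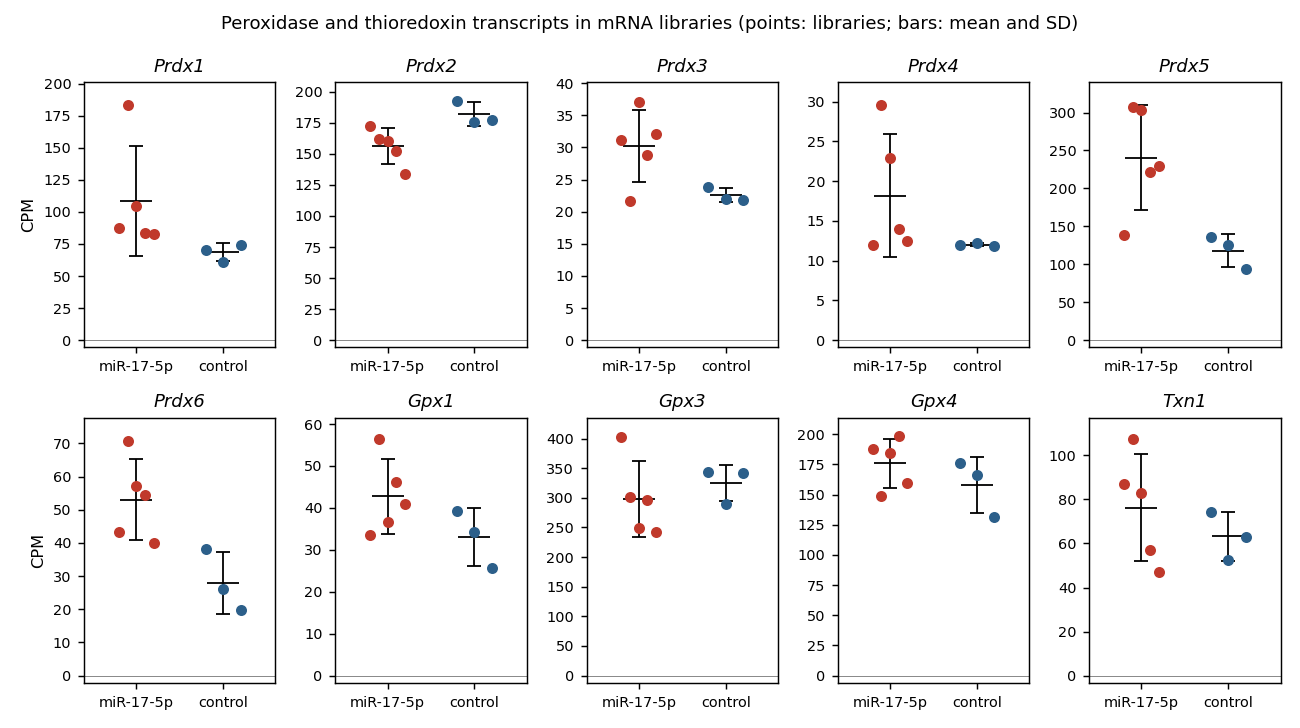
Levels of the 10 transcripts in mRNA libraries, in CPM on a linear axis for each gene; each point is a library, the long bar is the mean and the whiskers are the SD (miR-17-5p n = 5, control n = 3). All miR-17-5p points lie above all control points for Prdx1, Prdx5 and Prdx6 and below them for Prdx2.

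Prdx1 and Prdx2 are the abundant cytosolic peroxiredoxins, both recycled by thioredoxin. Prdx1 stood at 87.7, 184, 104, 83.6 and 83.0 CPM in miR-17-5p libraries 1, 2, 4, 5 and 6, against 70.1, 61.2 and 74.6 CPM in control libraries 1, 2 and 3. The groups did not overlap, but library 2 of the miR-17-5p group stood far above the other 4. The log2 fold change was 0.66 ± 0.25 (SE) with an edgeR adjusted p of 0.168, and it was 0.40 when that library was left out.

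Prdx2, which red blood cells also hold in large amounts, had 173, 162, 160, 152 and 133 CPM in miR-17-5p libraries, against 193, 175 and 177 CPM in control libraries. Every miR-17-5p library lay below every control library, the reverse of Prdx1. The means were 156 ± 14.6 CPM in miR-17-5p mRNA (SD, n = 5) and 182 ± 9.57 CPM in control mRNA (SD, n = 3), and the log2 fold change of -0.22 ± 0.12 did not pass the test (edgeR adjusted p = 0.342). Red blood cell markers were lower in the same libraries, with Hba2 at 4.11 ± 1.28 CPM in miR-17-5p mRNA (SD, n = 5) and 20.7 ± 15.4 CPM in control mRNA (SD, n = 3), and their part in the Prdx2 difference was not tested.

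Prdx3 works in the mitochondrial matrix, where it is the main peroxiredoxin. It had 31.2, 21.7, 37.1, 28.8 and 32.1 CPM in miR-17-5p libraries, against 23.9, 22.0 and 21.8 CPM in control libraries. Apart from library 2, which was the lowest of all 8, the miR-17-5p libraries were higher than the controls, and the log2 fold change was 0.42 ± 0.20 (edgeR adjusted p = 0.271).

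Prdx4 resides in the endoplasmic reticulum, where it passes oxidising power from peroxide to protein disulfide isomerases. It had 12.0, 29.6, 22.9, 14.0 and 12.5 CPM in miR-17-5p libraries, against 12.0, 12.2 and 11.9 CPM in control libraries. The 3 controls were within 1.03-fold of each other while the miR-17-5p libraries spanned 2.48-fold, and the groups overlapped. The log2 fold change was 0.59 ± 0.32 (edgeR adjusted p = 0.351).

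Prdx5 is an atypical peroxiredoxin of mitochondria, peroxisomes and cytosol. Its level was 139, 308, 304, 222 and 229 CPM in miR-17-5p libraries, against 135, 126 and 93.3 CPM in control libraries. The groups did not overlap, though library 1 of the miR-17-5p group, the most deeply sequenced, lay only just above the highest control. That library also had the lowest summed stellate and fibroblast markers of its group, 19259 CPM against 29492 to 42673 CPM. Its summed islet hormone and beta cell markers were the highest, at 489787 CPM. The part of cell makeup in the Prdx5 difference was not tested. Means were 240 ± 69.4 CPM in miR-17-5p mRNA (SD, n = 5) and 118 ± 22.0 CPM in control mRNA (SD, n = 3). The log2 fold change was 1.02 ± 0.23 and the adjusted p was 0.0323 in edgeR, which ranked Prdx5 at 279 of 11077 genes. The call was lost without any one of 6 of the 8 libraries: the adjusted p was 0.0603, 0.118 and 0.164 without control 1, 2 or 3 and 0.0826, 0.055 and 0.0613 without miR-17-5p library 4, 5 or 6. It reached 0.00154 without miR-17-5p library 1 and stood at the threshold, 0.05, without library 2, while the log2 fold change stayed between 0.88 and 1.16 in all 8 fits.

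Prdx6 differs from the others in using glutathione as its reductant and in having a phospholipase activity. It had 43.2, 70.7, 57.1, 54.3 and 39.9 CPM in miR-17-5p libraries, against 38.1, 26.2 and 19.7 CPM in control libraries. The groups did not overlap, with 39.9 CPM as the lowest miR-17-5p value and 38.1 CPM as the highest control value. The log2 fold change of 0.90 ± 0.24 missed the threshold in edgeR (adjusted p = 0.0531). It passed in the Wald test of DESeq2 (adjusted p = 0.0105), in limma-voom (adjusted p = 0.0386) and in edgeR with no filter on low counts (adjusted p = 0.0402). Without single libraries the edgeR adjusted p ran from 0.0281 to 0.208, past the threshold in 2 of 8 fits, and the log2 fold change from 0.71 to 1.19.

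Gpx1, the general selenium-dependent peroxidase of cytosol and mitochondria, had 33.6, 56.5, 36.6, 46.2 and 40.9 CPM in miR-17-5p libraries, against 39.2, 34.3 and 25.6 CPM in control libraries. The groups overlapped, and the log2 fold change was 0.36 ± 0.20 (edgeR adjusted p = 0.377). Gpx3, the secreted form known from plasma, had 402, 302, 248, 296 and 242 CPM in miR-17-5p libraries, against 344, 290 and 341 CPM in control libraries. Its groups overlapped in both directions, and the log2 fold change was -0.12 ± 0.16 (edgeR adjusted p = 0.738).

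Gpx4 reduces lipid hydroperoxides within membranes and protects cells from ferroptosis. It had 188, 149, 184, 198 and 159 CPM in miR-17-5p libraries, against 176, 166 and 132 CPM in control libraries, and the groups overlapped. The log2 fold change was 0.15 ± 0.14 (edgeR adjusted p = 0.606). Txn1, the thioredoxin that recycles most peroxiredoxins, had 87.0, 107, 83.1, 56.8 and 47.0 CPM in miR-17-5p libraries, against 74.3, 52.3 and 63.0 CPM in control libraries. The miR-17-5p values reached both above and below all controls, and the log2 fold change was 0.27 ± 0.24 (edgeR adjusted p = 0.588).

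Within the miR-17-5p mRNA group, library 2 held the highest value for 6 of the 10 genes: Prdx1, Prdx4, Prdx5, Prdx6, Gpx1 and Txn1. The same library held the lowest value for Prdx3 and Gpx4, so the genes did not shift together. Its summed acinar cell markers were 126 CPM, with the next highest library of its group at 41.0 CPM. Between groups edgeR called 0 of 5 tested acinar markers. Library 2 also had the highest summed Nrf2 pathway genes (2502 CPM, next 1849 CPM). Its islet hormone and beta cell markers were the lowest of the group, at 268941 CPM. Other selenoproteins were highest in library 1 (788 CPM, against 677 CPM in library 2). The part of cell makeup in the values of library 2 was not tested. Among the 3 control mRNA libraries, library 1 was highest for 8 of the 10 and library 3, the shallowest, was lowest for 6. Summed over the 10 genes, levels were 1019 to 1390 CPM in miR-17-5p mRNA and 960 to 1105 CPM in control mRNA, and these ranges overlapped. Among the genes outside the set whose log2 CPM over the 8 mRNA libraries was most like the mean pattern of the 10 were Akr1a1 (Pearson r 0.961), Ndufa5 (0.957), Rpl19 (0.956) and Ddx49 (0.955), out of 3719 genes compared. These coefficients describe the same 8 libraries, whose depth and cell makeup the genes share.

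Promoter windows of Prdx1, Prdx5 and Prdx2 are shown because these genes were the ones with a window whose mRNA groups did not overlap. Each is the 300 bases from 250 before to 50 after the start of the gene in RefSeq, build GRCr8, written along the gene's own strand. Capitals mark matches to the core of the antioxidant response element, TGACNNNGC, which the regulator Nrf2 is known to bind, and to the AP-1 site TGAGTCA, searched on both strands. The windows lie at chr5:135383656-135383955 on the plus strand for Prdx1, chr1:213531978-213532277 on the minus strand for Prdx5 and chr19:40090933-40091232 on the minus strand for Prdx2.
Prdx1: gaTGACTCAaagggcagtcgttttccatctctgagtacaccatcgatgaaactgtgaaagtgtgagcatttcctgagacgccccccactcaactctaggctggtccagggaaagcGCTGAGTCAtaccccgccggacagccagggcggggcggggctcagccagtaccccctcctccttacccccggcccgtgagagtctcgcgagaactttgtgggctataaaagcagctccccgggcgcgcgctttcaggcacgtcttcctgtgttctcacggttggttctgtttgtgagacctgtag
Prdx5: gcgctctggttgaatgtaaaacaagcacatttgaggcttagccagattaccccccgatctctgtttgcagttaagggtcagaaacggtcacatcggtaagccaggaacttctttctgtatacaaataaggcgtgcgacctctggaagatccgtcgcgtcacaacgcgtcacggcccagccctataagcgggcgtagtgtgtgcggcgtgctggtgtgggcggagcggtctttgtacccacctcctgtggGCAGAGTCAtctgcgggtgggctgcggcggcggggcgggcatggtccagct
Prdx2: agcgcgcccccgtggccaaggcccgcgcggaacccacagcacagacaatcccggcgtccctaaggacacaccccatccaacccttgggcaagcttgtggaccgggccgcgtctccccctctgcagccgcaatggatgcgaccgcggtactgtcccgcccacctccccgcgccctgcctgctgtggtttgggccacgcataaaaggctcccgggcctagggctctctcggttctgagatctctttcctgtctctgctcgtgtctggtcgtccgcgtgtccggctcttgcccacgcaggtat

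In Prdx1 the antioxidant response element core matched at bases 116 to 124 of the window on the minus strand, and AP-1 sites matched at bases 3 to 9 and 118 to 124, the second lying within the first match. In Prdx5 the core matched at bases 250 to 258, across the start of the gene, and the Prdx2 window held neither motif. RefSeq gave 11 windows for 9 of the 10 genes, all but Prdx6, with 3 for Gpx4. The core was in a window of 3 of these 9 genes (Prdx1, Prdx4 and Prdx5), as in 13.1% of the 27457 genes with a window and 12.1% of all 33469 windows. The AP-1 site was in 1 of the 9 genes, as in 5.04% of all genes with a window and 4.63% of all windows. A match is a description of letters, and binding was not measured here.

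Related transcripts are read against the 3.87% of all genes called in mRNA. Their unadjusted p values under 0.05 are read against 11.0% of all genes as higher and 8.00% as lower. Among the other glutathione peroxidases 1 of 3 tested genes was called higher, which was Gpx8, a glutathione peroxidase of the endoplasmic reticulum, at 25.7 ± 3.68 CPM in miR-17-5p mRNA (SD, n = 5) and 9.42 ± 2.53 CPM in control mRNA (SD, n = 3). Its log2 fold change was 1.41 ± 0.24 (edgeR adjusted p = 0.0066). Gpx7, its close relative in the same compartment, had a log2 fold change of 0.97 ± 0.28 and missed the threshold (edgeR adjusted p = 0.0722).

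No gene was called by edgeR among 11 thioredoxin and peroxiredoxin partners, of which 3 had an unadjusted p under 0.05. The closest were Txndc17, a thioredoxin-like protein, at a log2 fold change of 0.91 (edgeR adjusted p = 0.0722), and Srxn1, the sulfiredoxin that repairs over-oxidised peroxiredoxins, at -0.58 (edgeR adjusted p = 0.191). None of 9 genes of glutathione synthesis and recycling, 4 superoxide dismutases and catalase, 4 genes of selenoprotein synthesis, 7 other selenoproteins, 2 methionine sulfoxide reductases or 7 genes of oxidative folding in the endoplasmic reticulum was called by edgeR. Unadjusted p was under 0.05 for 1, 0, 1, 1, 0 and 0 of them in that order. Among 12 genes of the Nrf2 pathway, 0 were called and 2 had an unadjusted p under 0.05, near the share of all genes. These were Keap1, which holds Nrf2 inactive, at a log2 fold change of -0.46 (edgeR adjusted p = 0.112), and Nfe2l2, which encodes Nrf2, at 0.47 (edgeR adjusted p = 0.131). Of the 12 genes 4 lay above 0 and 8 below, with a median of -0.04.

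**Figure D2:**
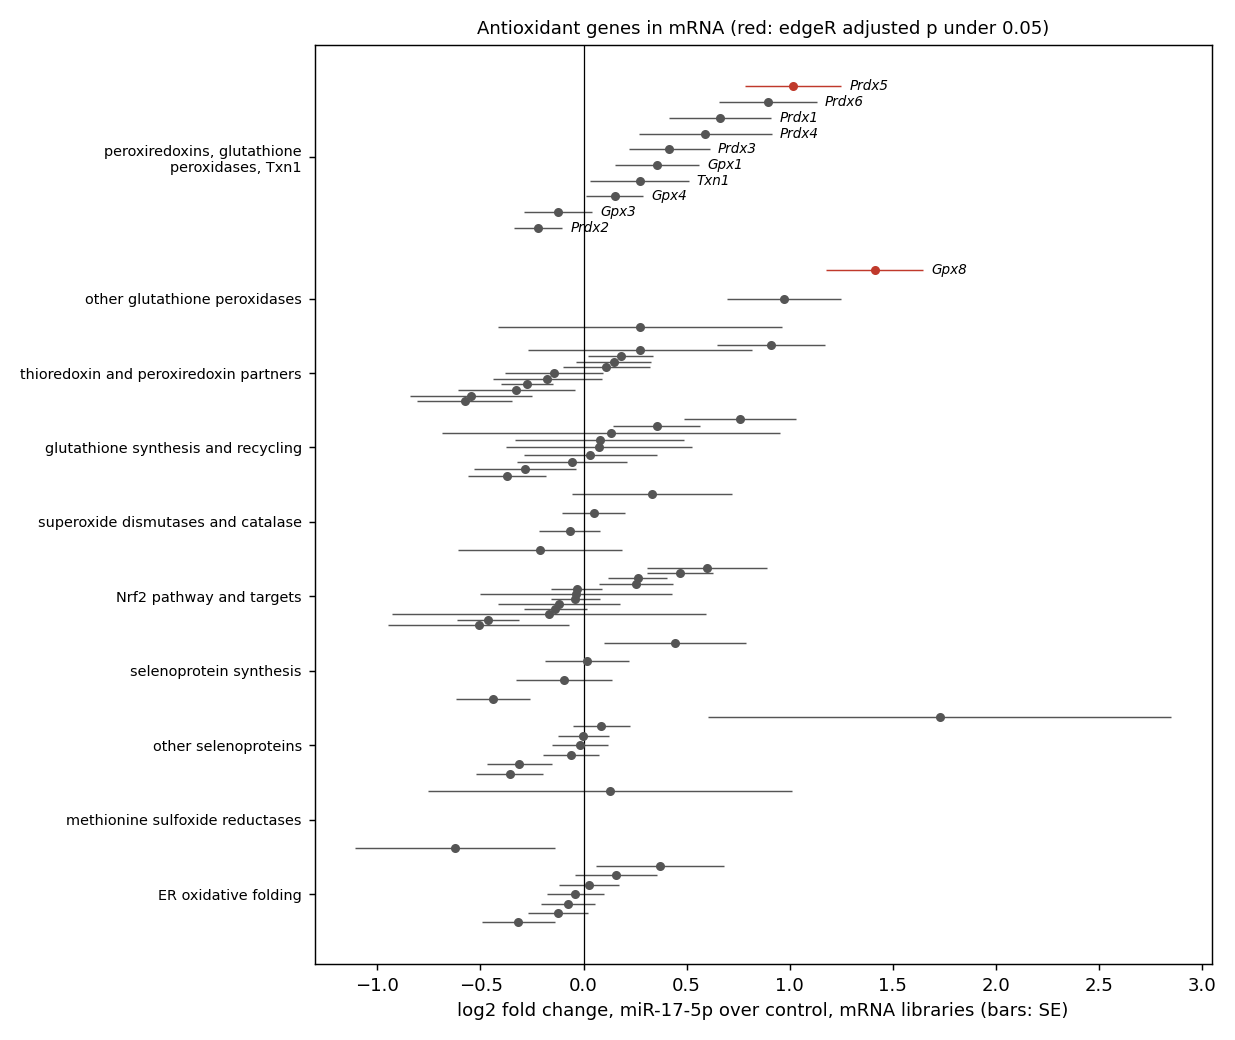
Log2 fold change of miR-17-5p over control in mRNA libraries for the 10 genes and for 9 lists of related genes (points: genes, bars: SE, red: edgeR adjusted p under 0.05). Prdx5 at 1.02 and Gpx8 at 1.41 are the 2 red points, and 8 of the 10 genes of the top row lie right of 0.

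Comparison of miR-17-5p with control RISC libraries asked which transcripts were more or less abundant on Ago2 after transfection. Prdx5 was the member with the clearest separation, present in all 4 miR-17-5p libraries and at 0 in all 3 controls, but no member of the set passed the edgeR test. Of the 10 genes 7 passed the filter on low counts. Prdx4, Gpx1 and Gpx4 did not. With no filter all 10 were tested and 0 were called by edgeR. The edgeR test called 0.371% of the 9443 genes tested, 0.339% higher and 0.0318% lower, and of the 7 members 0 were called and 1, Prdx5, had an unadjusted p under 0.05, against 17.7% of all genes as higher and 2.39% as lower. Groups did not overlap for Prdx5 alone among the 7, and for 21.0% of all genes, with 17.8% higher and 3.19% lower. DESeq2 called 1, Prdx5, and limma-voom 0. The median log2 fold change was 0.57 over the 7 genes and 0.27 over all genes tested.

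**Figure D3:**
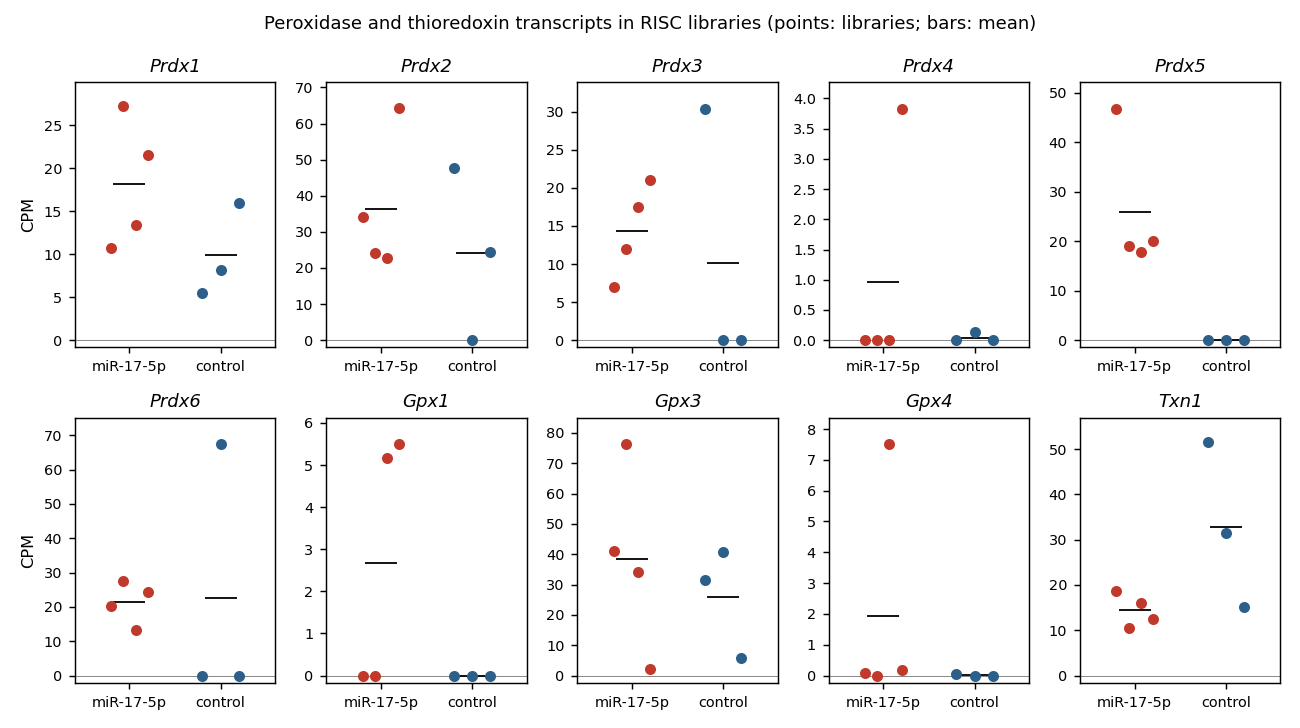
Levels of the 10 transcripts in RISC libraries, in CPM on a linear axis for each gene; each point is a library and the bar is the mean (miR-17-5p n = 4, control n = 3). For Prdx5 all 4 miR-17-5p points lie above 17 CPM and the 3 controls at 0, and for Prdx3 and Prdx6 1 control library lies above all miR-17-5p points while the other 2 lie at 0.

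Zeros were common in the control RISC libraries. Members of the set were at 0 in 6 of 40 gene and library pairs in miR-17-5p RISC and in 14 of 30 in control RISC. Over the 7393 genes with a mean of at least 10 CPM in mRNA libraries, 3.93% of such pairs were at 0 in miR-17-5p RISC and 25.2% in control RISC. A count of 3, used here as the floor, corresponded to 0.234 to 0.500 CPM in miR-17-5p RISC and to 0.193, 0.385 and 0.564 CPM in control RISC libraries 1, 2 and 3. Such floors cover counting error only.

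Among the cytosolic peroxiredoxins, Prdx1 was present in every RISC library, at 10.8, 27.2, 13.4 and 21.5 CPM in miR-17-5p libraries 2, 4, 5 and 6, against 5.52, 8.21 and 16.0 CPM in control libraries 1, 2 and 3. The groups overlapped, and the log2 fold change was 0.88 ± 1.33 (edgeR adjusted p = 0.944). Prdx2 had 34.2, 24.1, 22.9 and 64.2 CPM in miR-17-5p libraries, against 47.6, 0.128 and 24.5 CPM in control libraries. Control library 2 held 1 count of Prdx2 where the others of its group held 741 and 130, and the groups overlapped (log2 fold change 0.59 ± 1.41, edgeR adjusted p = 0.976).

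Mitochondrial Prdx3 had 7.02, 12.0, 17.5 and 21.0 CPM in miR-17-5p libraries, against 30.4, 0 and 0 CPM in control libraries. Control library 1 was above all miR-17-5p libraries and the other 2 controls were at 0, so no direction held across libraries (log2 fold change 0.50 ± 2.19, edgeR adjusted p = 0.986). Prdx6 showed a like split in another library, with 20.4, 27.6, 13.4 and 24.3 CPM in miR-17-5p libraries, against 0, 67.5 and 0 CPM in control libraries. Its 526 control counts all came from library 2, and the log2 fold change was -0.07 ± 2.15 (edgeR adjusted p = 0.998). Leaving out that library puts the remaining controls at 0 by construction, and the edgeR adjusted p of Prdx6 was then 0.0386, in a fit that called 1225 genes in place of 35.

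Prdx5 had 46.8, 18.9, 17.8 and 20.0 CPM in miR-17-5p RISC libraries, from 600, 181, 159 and 120 counts, and 0 in each of the 3 control RISC libraries. Against a floor of 3 counts in each control library the mean in miR-17-5p RISC, 25.9 ± 14.0 CPM (SD, n = 4), was at least 68.0-fold higher. That bound covers counting error only. In the same 3 control libraries Prdx3 held 474, 0 and 0 counts and Prdx6 held 0, 526 and 0. The edgeR adjusted p was 0.0725, and without each library in turn it lay between 0.0386 and 0.121. The pattern of 0 in every control library with over 3 counts in every miR-17-5p library was met by 526 of 9443 genes, or 5.57%. In the same RISC libraries, summed macrophage and leukocyte markers stood at 429 to 555 CPM in miR-17-5p and 0.753 to 245 CPM in control, and stellate and fibroblast markers at 29067 to 32240 CPM in miR-17-5p and 5406 to 11981 CPM in control. Log2 fold changes were above 0 for all 13 tested macrophage and 14 of 15 tested stellate markers. Called higher were 1 of 13 macrophage and 6 of 15 stellate markers, against 0.339% of all genes. The part of these cell types in the Prdx5 difference was not tested.

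Of the selenoenzymes Gpx3 passed the filter on low counts in this comparison, and Gpx1 and Gpx4 did not. Gpx3 had 41.0, 76.4, 34.0 and 2.00 CPM in miR-17-5p libraries, against 31.4, 40.7 and 5.64 CPM in control libraries. One library of each group was far below the rest, the groups overlapped, and the log2 fold change was 0.57 ± 1.23 (edgeR adjusted p = 0.975). Gpx1 had 0, 0, 5.16 and 5.50 CPM in miR-17-5p libraries and 0 in all 3 controls. The 2 miR-17-5p libraries at 0 could not be told from the controls, so no fold is given for the group. Gpx4 counted 1, 0, 67 and 1 in miR-17-5p libraries, against 1, 0 and 0 in control libraries, so that 67 of its 69 miR-17-5p counts came from library 5. Prdx4 counted 0, 0, 0 and 23 in miR-17-5p libraries, against 0, 1 and 0 in control libraries, with all 23 counts in library 6.

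Txn1 was the only member of the 7 tested, apart from Prdx6, with a log2 fold change below 0 in RISC. It had 18.6, 10.6, 16.0 and 12.5 CPM in miR-17-5p libraries, against 51.6, 31.6 and 15.1 CPM in control libraries. Control libraries 1 and 2 were above every miR-17-5p library and control library 3 lay among them, and the log2 fold change of -1.18 ± 1.10 did not pass the test (edgeR adjusted p = 0.81).

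Over the 7 RISC libraries and 3262 genes compared, the genes most like the mean pattern of the 7 tested members were Sh2b3 (Pearson r 0.987), St5 (0.985), Ptpn11 (0.982), Pkd2 (0.977) and Ap3d1 (0.975). None of them was among those named for mRNA. All genes compared share the depth of the same 7 libraries.

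A model of all 15 libraries tested whether the miR-17-5p effect differed between RISC and mRNA. It shares its libraries with the comparisons above and is no separate evidence. The difference was called for Prdx5 alone, higher in RISC (edgeR adjusted p = 3.62e-05), against 13.4% of 11418 genes tested, 13.0% higher and 0.394% lower. This fit gave each gene 1 spread over both library types, though RISC libraries varied more than mRNA libraries. The common biological coefficient of variation was 0.305 for mRNA and 1.23 for RISC when fitted apart. In RISC libraries alone the edgeR adjusted p of Prdx5 was 0.0725. Since control RISC was at 0, the fitted size depends on the prior count and is no bound. The median difference was 0.72 over the 10 genes and 0.40 over all genes.

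Gpx1, at 0 in control RISC, had an adjusted p of 0.0734 in this edgeR model and Gpx4 of 0.116. Txn1 had a difference of -1.48 ± 0.59, lower in RISC (edgeR adjusted p = 0.119), and the remaining 6 members had adjusted p values from 0.413 to 1. DESeq2 called 3 members, Prdx5, Gpx1 and Txn1, and 2210 of the 11418 genes, while limma-voom called 0 members and 0 genes.

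Comparison of RISC with mRNA libraries of the same cells asked how much of each transcript was on Ago2 relative to its poly(A) level. In miR-17-5p cells all 10 transcripts were called lower in RISC, against 21.8% of the 10871 genes tested, with 21.7% called higher and 43.5% in either direction. The median log2 fold change was -3.07 over the 10 genes and -0.15 over all genes. In control cells 6 of 10 were called lower, against 22.3% of the 10170 genes tested, with 5.96% called higher and 28.2% in either direction. The median was -3.71 over the 10 genes and -0.69 over all genes. Setting Prdx5 and Gpx1, at 0 in control RISC, to their bounds left the median of the 10 at -3.71. Library types were prepared differently and each fit gave a gene 1 spread over both, so these folds set Ago2-bound against poly(A)-selected RNA on a scale common to both.

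**Figure D4:**
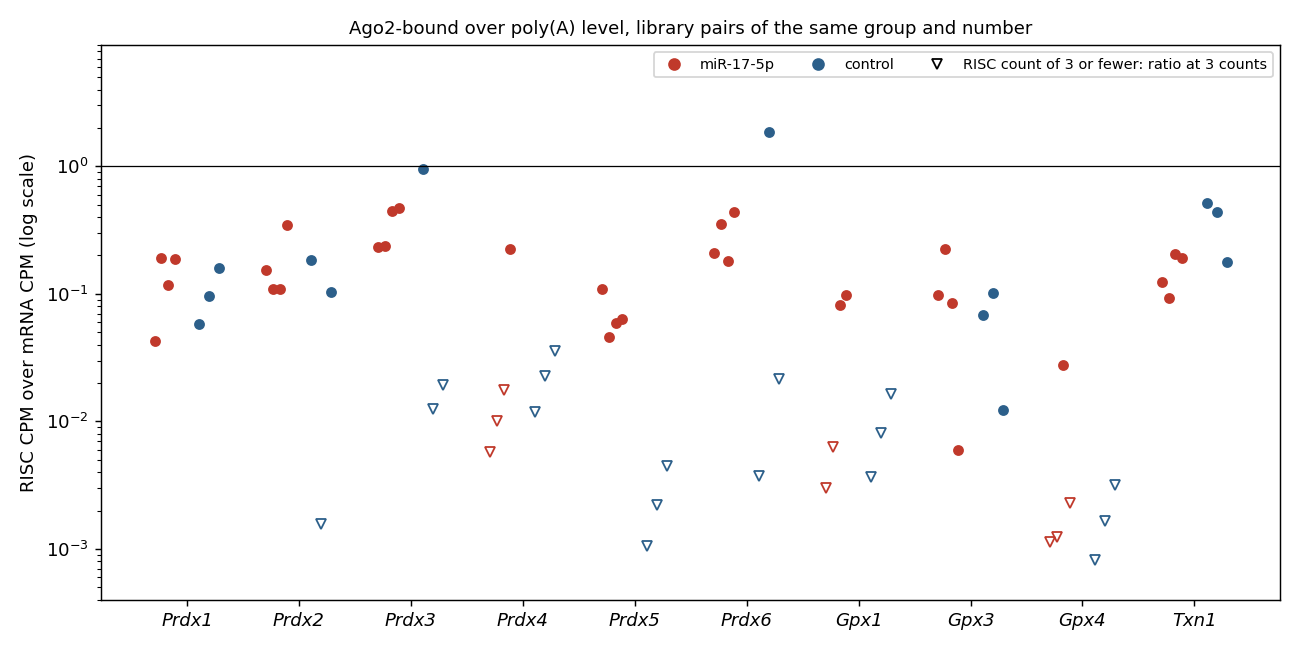
Ratio of RISC to mRNA level, CPM over CPM on the scale of all 15 libraries and a log axis, for libraries of the same group and number, which are not known to come from 1 culture (miR-17-5p n = 4, control n = 3). Open triangles stand for RISC counts of 3 or fewer and show the ratio that 3 counts would give; nearly all points lie below 1, with Prdx6 in control library 2, at 1.85, above it.

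Fitted sizes varied among the peroxiredoxins, and differences between genes were not tested. In miR-17-5p cells the log2 fold change of RISC over mRNA was -1.37 ± 0.34 for Prdx3 (edgeR adjusted p = 0.00663) and -1.62 ± 0.26 for Prdx6 (edgeR adjusted p = 0.000348). Prdx2 had -2.42 ± 0.28 and Prdx1 -2.89 ± 0.34, with edgeR adjusted p values of 3.82e-05 and 3.95e-05. Prdx5 had -3.50 ± 0.36 (edgeR adjusted p = 1.6e-05). Prdx4, seen in 1 of 4 RISC libraries, had -4.70 ± 1.38 (edgeR adjusted p = 0.0163), and its call was lost without miR-17-5p library 2 or 5, with adjusted p values of 0.067 and 0.0602.

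Ratios between libraries of the same number show the spread behind these folds, though the numbers are not known to match RISC and mRNA libraries of 1 culture. For Prdx3 the RISC level was 0.234, 0.237, 0.444 and 0.475 of the mRNA level in miR-17-5p libraries 2, 4, 5 and 6, and 0.948 in control library 1, while the other 2 controls had no RISC count. For Prdx5 the ratio was 0.110, 0.0456, 0.0587 and 0.0633 in the miR-17-5p libraries, and in control libraries 1, 2 and 3 a count of 3 would have given 0.00106, 0.00221 and 0.00449. The 4 miR-17-5p ratios of Prdx5 were all above these control values, which cover counting error only.

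Gpx4 had a fitted log2 fold change of -6.75 ± 1.00 in miR-17-5p cells (edgeR adjusted p = 0.00023). Its ratio was 0.0277 in library 5, while libraries 2, 4 and 6 held at most 1 RISC count, where 3 counts would have given 0.00114, 0.00124 and 0.00227. Without library 5 the fitted log2 fold change was -11.30, and that of Prdx4 without library 6 was -10.77, so that 1 library sets the fitted size of each and their order is not read. Gpx1 had -4.34 ± 1.05 (edgeR adjusted p = 0.00559) and Gpx3 -3.25 ± 0.65 (edgeR adjusted p = 0.00176). Txn1 had -2.69 ± 0.30 (edgeR adjusted p = 3.12e-05), with ratios of 0.125, 0.0929, 0.206 and 0.193.

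In control cells the members called lower in RISC were Prdx1, Prdx4, Prdx5, Gpx1, Gpx3 and Gpx4. Prdx1 had a log2 fold change of -3.24 ± 0.62 (edgeR adjusted p = 0.0128) and Gpx3 of -4.09 ± 0.76 (edgeR adjusted p = 0.0124). Against a floor of 3 counts in each RISC library, Prdx5 was at least 424-fold lower in RISC than in mRNA (edgeR adjusted p = 0.00791) and Gpx1 at least 119-fold lower (edgeR adjusted p = 0.0124). Both bounds cover counting error only.

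Gpx4 held 1 RISC count in the 3 control libraries together, against 3632 in mRNA, a ratio of 0.000155 with an exact 95% interval of 3.92e-06 to 0.000863 that covers counting error only. Prdx4 held 1 RISC count against 264 in mRNA, a ratio of 0.00213 (5.37e-05 to 0.0120). For the 4 members not called, edgeR adjusted p values were 0.2 for Prdx2, 0.786 for Prdx3, 0.906 for Prdx6 and 0.164 for Txn1, whose ratios were 0.516, 0.435 and 0.177. Without the RISC and mRNA libraries numbered 1, 0 members and 0 of all genes were called. The 6 fold changes then stayed below 0, with edgeR adjusted p values of 0.0619 for Prdx4, Prdx5, Gpx1 and Gpx4, 0.0668 for Prdx1 and 0.0933 for Gpx3. Without the libraries numbered 2, Prdx1 (edgeR adjusted p = 0.063) and Gpx3 (0.0553) were not called and Prdx2 was (0.0473), and without those numbered 3, Prdx4 was not called (0.0754).

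In the related lists, calls of RISC against mRNA in miR-17-5p cells are read against the 21.8% of all genes called lower and the 21.7% called higher. All 3 tested other glutathione peroxidases were lower, as were 5 of 7 other selenoproteins, among them Sep15 at -4.10 and Sepp1, the selenium carrier, at -2.91. Of 4 superoxide dismutases and catalase 2 were lower, with Sod1 at -3.09, and of 12 Nrf2 pathway genes 7 were lower and 1 higher, with Fth1, the ferritin heavy chain, at -3.37. Of 11 thioredoxin and peroxiredoxin partners 5 were higher and 2 lower in miR-17-5p cells, and 0 were higher and 1 lower in control cells: in miR-17-5p cells the sestrins Sesn3, Sesn2 and Sesn1 were higher in RISC at 2.22, 1.47 and 1.54. In miR-17-5p cells 3 of 9 genes of glutathione synthesis and recycling were higher and 1 lower. Of 7 genes of oxidative folding 1 was higher and 2 lower. In control cells, against 22.3% of all genes called lower, 1 of 3 other glutathione peroxidases and 1 of 6 other selenoproteins were lower. So were 1 of 4 superoxide dismutases and catalase, 5 of 12 Nrf2 pathway genes and 3 of 9 genes of glutathione synthesis and recycling. Gpx8 lay above 0 there, at 1.05 ± 1.15 (edgeR adjusted p = 0.664).

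Counts of some members are uncertain, since the tables hold reads with more than 1 alignment on a line apart from the genes, and reads shared with near-identical copies can fall there. RefSeq names 15 pseudogenes after 4 of the 10 genes, 7 after Prdx1, 4 after Gpx4, 3 after Prdx6 and 1 after Prdx3. The libraries keep no strand, so reads of an antisense partner cannot be told apart.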

How the data were processed

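The authors deposited 15 tables of raw counts per gene. Per the submitters' processing notes, which name TopHat2 2.0.10, Bowtie2 and HTSeq (both without a version) and build rn5, they come from reads aligned to the rat genome. Single-end libraries without strand information were made from oligo(dT)-selected or Ago2-bound RNA extracted with Trizol, per the labels' protocols. Lines that name no gene were dropped before totals were taken: reads with several alignments made up 15.0 to 31.2% of all counts in a library and ambiguous reads 0.151 to 0.454%. The 2 series summary tables were not used. Groups came from sample titles. The members, gene lists and tests were chosen with earlier results of these data known.

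Tests ran on the deposited counts in edgeR 4.0.16 under R 4.3.3 (TMM factors, filterByExpr, robust quasi-likelihood fits, two-sided) over all genes that passed the filter, called at a Benjamini-Hochberg adjusted p under 0.05, in 5 comparisons. The SE given with an edgeR fold change is the absolute log2 fold change divided by the square root of its quasi-likelihood F. It was not taken from the fit itself, and where a group was at 0 it depends on the prior count as the fold does. CPM used the TMM factors of the mRNA or RISC libraries apart, and of all 15 for ratios between them. CPM was compared only within a gene, since transcript lengths were not used here. The common biological coefficient of variation was 0.305 for the 2 mRNA groups, 1.23 for the 2 RISC groups, 0.584 and 1.20 between library types in miR-17-5p and control cells, and 0.871 over all 15 libraries. No 2 libraries of a group held identical counts. Functions were tested on simulated data. Alternatives were DESeq2 size factors, no filter, DESeq2 1.42.0, limma-voom (limma 3.58.1), leaving out Ins1, Ins2 and Rn45s, a replicate block, and leaving out each replicate number, in both library types where both entered.

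Named genes were all 10 members, at most the 3 genes with the smallest p of each related list and comparison, defining cell markers, and the 5 genes, among those averaging 5 or more in log2 CPM, most like the members' mean standardised log2 CPM (prior count 2); 1 of these for mRNA is not reported here. Sequences came from RefSeq tables of build GRCr8, matched by symbol, which gave all 10 members, 9 of them with promoter windows. No coordinates in rn5 are given.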

Additional observations from a re-analysis of the deposited data

Results flagged for a closer look

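In 4 of the 20 groups of at least 4 libraries examined, 1 per member and group, a single library stood apart from the others by Dixon's 95% limit, which chance would exceed in about 1 in 20 groups. Prdx1 in miR-17-5p mRNA was 184 CPM in library 2, with the next highest at 104 CPM. Prdx5 in miR-17-5p RISC was 46.8 CPM in library 2, with the next at 20.0 CPM. Gpx4 in miR-17-5p RISC was 7.52 CPM in library 5, with the next at 0.167 CPM. Prdx4 in miR-17-5p RISC was 3.83 CPM in library 6, with the others tied at 0, where any value in the remaining library exceeds that limit, so it is no sign of an unusual library. For Prdx5 the miR-17-5p effect was called different between RISC and mRNA, with a fitted log2 difference of 9.65 ± 0.86 (edgeR adjusted p = 3.62e-05). The same test called 13.4% of 11418 genes, 13.0% of them as higher in RISC, and limma-voom did not call Prdx5. The fitted size depends on the prior count because control RISC was at 0, and the fit used 1 spread over both library types.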

How the results depend on the processing

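In mRNA, 1 member was called by edgeR, 2 with no filter, with DESeq2 and with limma-voom, 0 with the replicate block, and 0 to 2 without single replicates; the count was 0 without control 2 or 3 or without miR-17-5p library 4, 5 or 6. All genes called numbered 429 in edgeR, 887 with DESeq2, 1001 with limma-voom, 0 with the block and 85 to 816 without single replicates. In RISC, 0 members were called by edgeR, 1 by DESeq2 and 0 to 2 without single replicates, with 2 without control 2; genes called were 35 in edgeR, 1305 with DESeq2, 20 with limma-voom and 0 to 1225 without single replicates. For RISC over mRNA in control cells 6 members became 3 with the block and 0 to 5 without single replicates, and 2870 genes became 338 and 0 to 3114; in miR-17-5p cells 9 to 10 members and 3770 to 4780 genes were called without single replicates. For the difference of effects 1 member became 3 with DESeq2 (2210 genes called), 0 with limma-voom and 1 to 2 without single replicates, and 1533 genes became 0 with limma-voom, 30 with the block and 1155 to 2452.

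Signs turned for genes that were not called: Gpx3 (0.14) and Gpx4 (-0.031) in mRNA and the Prdx4 difference (-0.12) with the block, Txn1 in mRNA (-0.048) with limma-voom, and the Prdx3 difference (-0.063) with DESeq2 size factors. Prdx6 turned to 5.09 in RISC and 4.69 in the difference with limma-voom, and to 5.23 in the difference with the block. Without single replicates signs turned in RISC for Gpx3 (-0.039 to 1.05), Prdx3 (-0.12 to 9.91) and Prdx6 (-0.69 to 10.70), in the difference for Prdx1 (-0.071 to 0.83), Prdx3 (-0.39 to 9.35), Prdx4 (-2.53 to 5.33) and Prdx6 (-1.70 to 9.65), and in RISC over mRNA of control cells for Prdx6 (-11.26 to 0.094). The cause was not tested. DESeq2 size factors moved the median of all genes to -0.26, -0.87 and 0.27 from -0.15, -0.69 and 0.40 for RISC over mRNA in miR-17-5p cells, in control cells and in the difference. Limma-voom moved it to -0.36, -2.89 and 1.53 and, in RISC, to 1.89 from 0.27; the block moved it to -0.36, -2.38 and 1.47.

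Replicate numbers were not seen to pair libraries. Correlations of deviations were -0.378 and -0.0931 in mRNA, -0.0685 to 0.107 between library types in miR-17-5p cells and -0.0398 to 0.0574 in control cells. RISC library 4 of miR-17-5p (0.107) and RISC library 3 of control (0.0545) were most like the mRNA library of their own number, and the others were not. So few libraries cannot decide whether the numbers pair. No paired analysis was possible for miR-17-5p against control in RISC because the groups share only number 2. A level below 3 counts, 0.193 to 0.564 CPM in RISC, could not be told from 0.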
